A study of Rattus norvegicus with 6 samples.

Results

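Genes of the contractile apparatus that fibroblasts take up when they turn into myofibroblasts were followed in synovial fibroblast-like cells grown in 3 kinds of serum. The list named 10 genes: the muscle actins Acta1, Acta2 and Actg2, the actin-binding genes Tagln, Cnn1, Tpm1, Tpm2 and Cald1, and the myosin genes Myh11 and Myl9. They were taken by symbol from a table of 17221 transcripts, and the transcript with the highest mean stood for each gene. Of the 10, 9 had values and all 9 were among the 9820 transcripts tested; Acta2, the smooth muscle alpha-actin, was not analysed here. The cells came from the joint lining of 2 female Wistar rats with collagen-induced arthritis, harvested at disease onset and used at passage 5. Cells of both rats were cultured for 72 h in each medium, which gave 6 libraries of poly(A) RNA, 2 per medium. The media differed in their serum, which was fetal bovine (FBS), from rats not given the stimulation (MS-), or from rats after 18 days of it (MS+); the stimulation was a needle treatment that the labels call acupuncture. MS+ against MS- compares serum of stimulated and unstimulated donors, and FBS is the standard medium. By the study's methods, MS- serum was drawn before any therapy began. The stimulation therefore cannot be told apart from the time that passed in the donors. The labels do not give the number of serum donors, and they describe the MS- donors both as healthy and as arthritic. All cells were arthritic, so no library held cells of a healthy joint, and the 2 libraries of a group differ in the rat that gave the cells, not in a serum donor known to differ.

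In a contractile cell, filaments of actin are pulled along by myosin, whose regulatory light chain is switched on by phosphorylation. Tropomyosin, caldesmon, calponin and transgelin lie along the actin filament and set how myosin can reach it. Fibroblasts in healing or inflamed connective tissue can assemble the same apparatus, and smooth muscle actin is the usual marker of such myofibroblasts. Many of these genes carry a CArG box, the DNA element bound by serum response factor (SRF), or an MCAT element, bound by TEAD factors.

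The table was given in CPM, the reads of a transcript scaled to a common library size after TMM adjustment, and a single read was worth 0.164 to 0.184 CPM. The libraries held 5463316 to 5991889 reads, and between 9678 and 9749 transcripts reached 1 CPM in each. The 9 genes carried from 285 reads (Tpm1) to 59649 reads (Tagln) per library, so counting error weighs most on Tpm1. The 10 fibroblast markers listed ranged widely, with Vim at 11485 to 16559 CPM, Pdgfrb at 2137 to 2518 CPM and Pdgfra at 124 to 228 CPM. Fap was only at 2.78 to 9.19 CPM, and Dcn, the gene of decorin, was at 0 to 5 reads. Of 7 macrophage and blood cell markers, Ptprc, Lyz2, Hba-a2 and Cd3e were at 0 reads in all 6 libraries, and the summed level of the list was 13.8 to 20.5 CPM. The pericyte and smooth muscle list of 8 genes summed to 1844 to 2070 CPM in FBS, 2447 to 2466 in MS- and 2197 to 2361 in MS+, nearly all of it Cspg4, while Rgs5 was at 0 reads. The skeletal muscle list of 13 genes differed by rat and by medium, with sums of 49.1 and 357 CPM in FBS, 74.8 and 274 in MS- and 36.0 and 129 in MS+ for rats 1 and 2, and Tnni2 and Pax7 were at 0 reads. With the rat as a block in limma, 3 of its 4 tested genes (Myh1, Myh2 and Myh4) were lower in MS+ than in MS- (4.78% of all transcripts) and than in FBS (13.9%). Myh1 was -1.23 from MS- (adjusted p = 0.706 without the block, 0.00220 with it) and -0.95 from FBS (0.663 and 0.00401), and their part in the results below was not tested. Endothelial markers summed to at most 1.47 CPM, with Cdh5 at 0 reads. In such bulk libraries more cells of a type and more RNA per cell cannot be told apart.

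Promoter sequence was matched by symbol for 7 of the 10 named genes in the RefSeq set of assembly GRCr8, which gives 250 bases before and 50 bases after each start site; Tagln, Myh11 and Myl9 had no entry. Actin promoters are shown because Acta1, Actg2 and Actc1 were each lowest in MS- in both rats in the data below. Only some of the actins hold a CArG box in this window. Capitals mark a CArG box (CC and GG around a core of A and T alone), or an MCAT element (CATTCC, searched on both strands). The Acta1, Actg2 and Actg1 sequences run from 120 bases before the start site to the base before it. They lie on the minus strand at chr19:68784195-68784314, chr4:117594040-117594159 and chr10:106120952-106121071. The Actc1 stretch of 30 bases surrounds its CArG box just past the start site, at chr3:121271806-121271835 on the minus strand.
Acta1: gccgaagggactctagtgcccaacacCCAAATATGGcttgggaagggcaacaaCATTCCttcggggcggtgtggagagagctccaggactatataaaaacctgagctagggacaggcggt
Actg2: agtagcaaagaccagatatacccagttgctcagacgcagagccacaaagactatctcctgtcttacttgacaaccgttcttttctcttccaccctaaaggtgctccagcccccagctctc
Actg1: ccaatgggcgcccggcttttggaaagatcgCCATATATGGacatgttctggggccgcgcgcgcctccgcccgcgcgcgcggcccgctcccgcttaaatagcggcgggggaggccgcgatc
Actc1: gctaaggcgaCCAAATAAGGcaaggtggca

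A CArG box was present in 1.64% of all 33469 promoter windows and an MCAT element in 14.2%. Among the matched contractile genes Acta1 alone held a CArG box of this strict form, 94 bases before its start. It also held an MCAT element 67 bases before the start. Boxes with a G or C in the core were not searched for, in Acta2 or any other gene. MCAT elements lay at -31 in Tpm1, at -196 in Acta2 and at -195 in 1 of the 2 Cald1 windows. Neither motif was found in the windows of Actg2, Cnn1, Tpm2 and the other Cald1 start, which says only that these letters are not within these 300 bases.

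Across the contractile genes no single direction was seen. The muscle actins Acta1 and Actg2 were lowest in MS-, Myh11 and Cald1 were lowest in FBS, Tpm1 was highest in MS-, and Tagln, Cnn1, Myl9 and Tpm2 did not pass a test between media. Differences between media were tested with limma on log2(CPM + 1) across all 9820 transcripts with Benjamini-Hochberg adjustment, first with medium as the only term and then with the rat added as a block, since both rats contributed to every medium. Fold changes below are on that log2(CPM + 1) scale, with SE from the fit without the block. Between MS+ and MS- none of the 9 genes passed at an adjusted p of 0.05 without the block, where 0.0204% of all transcripts did. At an unadjusted p of 0.05 there were 3, against 14.7% of all transcripts. The count was 0 by edgeR, by limma-voom and by DESeq2, which called 1.25% of all transcripts. With the rat as a block limma called 3 of 9 (Acta1 and Actg2 higher in MS+, Tpm1 lower), against 10.1% of all transcripts. Between MS+ and FBS 1 of 9 passed, Myh11, against 9.61% of all transcripts, and 2 with the block, Myh11 and Cald1, against 28.2%; a share of 2 in 9 is below that background. At an unadjusted p of 0.05 there were 2 (27.5% of all transcripts), and DESeq2 called 2, Myh11 and Cald1, against 8.26%. Between MS- and FBS limma called 0 of 9 without the block, against 4.81% of all transcripts, with 4 at an unadjusted p of 0.05 (21.1% of all transcripts). It was 0 by edgeR, 0 by limma-voom and 2 by DESeq2 (Cald1 higher and Actg2 lower), which called 5.45% of all transcripts. With the block it called 5 of 9 (Myh11, Cald1 and Tpm1 higher in MS-, Acta1 and Actg2 lower), against 20.5% of all transcripts. The widest difference of any of the 9 genes in any comparison was 0.58 on the log2 scale, that of Cald1 between MS- and FBS. The thresholds used in the study, which asked for at least a 2-fold change at an unadjusted p below 0.05, were met by 0 of 9 genes in each comparison and under each alternative analysis. Among all transcripts they were met by 1.24% for MS+ against MS-, 5.3% for MS+ against FBS and 3.62% for MS- against FBS with limma.

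**Figure D1:**
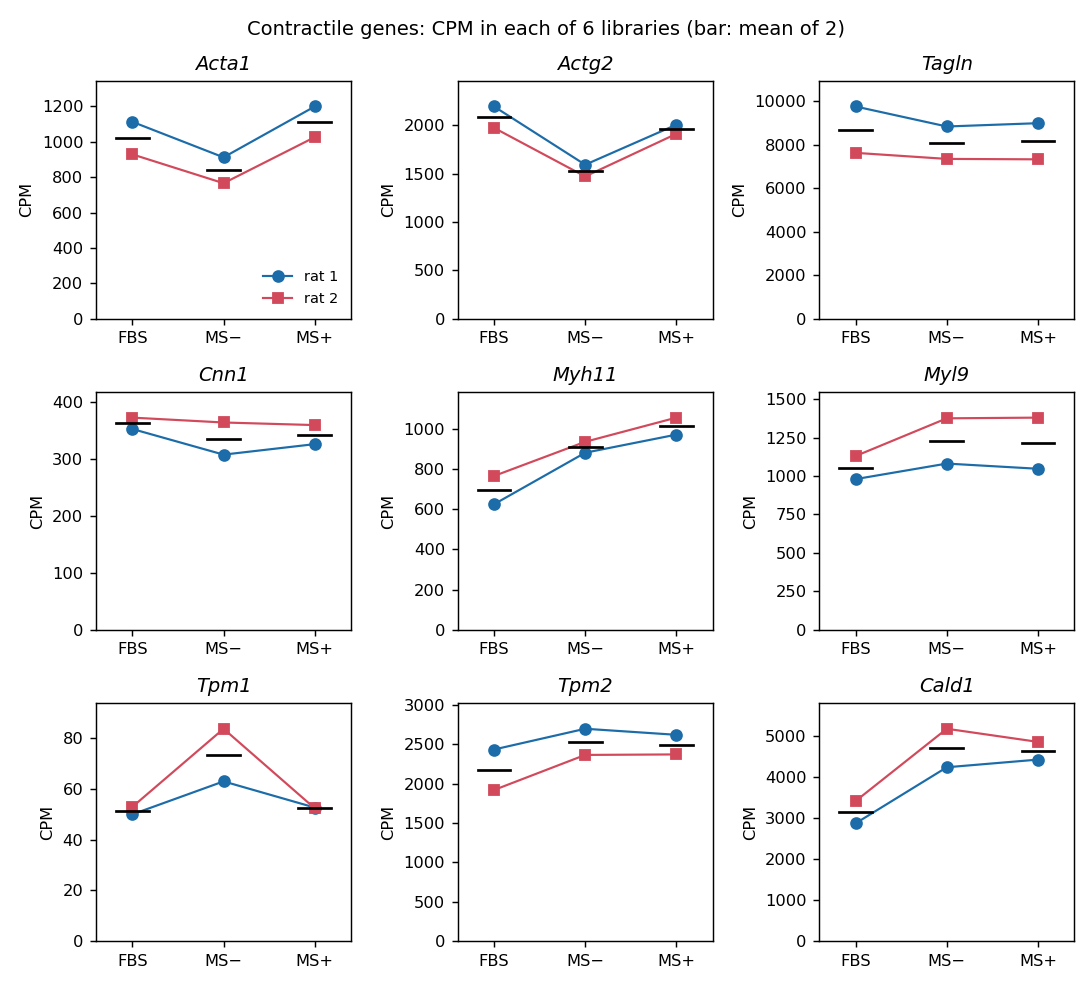
CPM (vertical axes, each starting at 0) of the 9 contractile genes in FBS, MS- and MS+, with the 2 rats as joined points and a black bar for the mean of 2 libraries. Acta1 and Actg2 dip in MS- in both rats, Myh11 and Cald1 are lowest in FBS in both rats, and Tpm1 peaks in MS-.

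**Figure D2:**
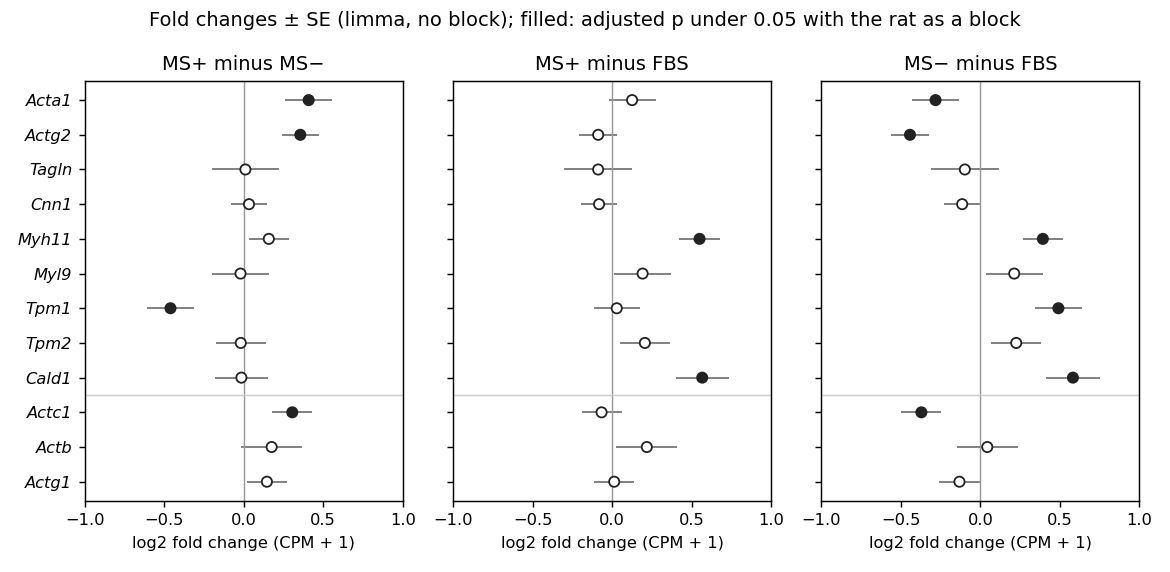
Log2 fold changes with their SE (limma, no block) for the 9 contractile genes and, under the grey line, 3 further actins, in the 3 comparisons; filled circles passed an adjusted p of 0.05 with the rat as a block. In MS- against FBS, 5 contractile genes are filled, 3 to the right of 0 and 2 to the left.

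Acta1 encodes the skeletal muscle alpha-actin, which many cultured fibroblasts also transcribe (NM_019212, chr19:54081496-54084508 in rn4, minus strand). It stood at 1113 and 929 CPM in FBS for rats 1 and 2, at 912 and 766 CPM in MS-, and at 1199.9 and 1026 CPM in MS+. The MS- and MS+ libraries did not overlap, as for 45.8% of all transcripts, and the MS- library of each rat was its lowest. Acta1 was 0.41 ± 0.15 higher in MS+ than in MS- (log2, adjusted p = 0.279 by limma, 0.00412 with the block), with differences of 0.40 in rat 1 and 0.42 in rat 2. In MS- it was -0.28 ± 0.15 from FBS (adjusted p = 0.330, and 0.0192 with the block). Without 1 library that difference ran from -0.41 to -0.15, and was smallest without FBS of rat 1 or MS- of rat 2. Between MS+ and FBS neither fit called a difference, and the 95% interval ran from -0.22 to 0.48.

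Actg2, the enteric smooth muscle gamma-actin (NM_012893, chr4:117732482-117747006, minus strand), was likewise lowest in MS- in both rats. Its MS+ level lay below FBS in each rat, where that of Acta1 lay above. Its levels were 2193 and 1972 CPM in FBS, 1591 and 1469.8 CPM in MS-, and 2005 and 1910.2 CPM in MS+. Both MS- libraries lay below all 4 others. The MS- level differed from FBS by -0.44 ± 0.12 (adjusted p = 0.0906 by limma, 0.00152 with the block, 0.00459 by DESeq2). From MS- to MS+ the difference was 0.36 ± 0.12 (adjusted p = 0.246, and 0.0141 with the block), or 0.33 and 0.38 in rats 1 and 2. MS+ and FBS differed by -0.09 ± 0.12, with a 95% interval of -0.37 to 0.19.

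Actins are among the most alike genes in the genome, and reads that fit more than 1 of them can be placed on the wrong gene or dropped. The cardiac actin Actc1, which is not on the list, read 783 and 682 CPM in FBS, 601 and 530.4 CPM in MS-, and 749 and 649.9 CPM in MS+. Like Acta1 and Actg2, it was lowest in MS- in both rats. Actc1 differed by -0.37 ± 0.13 in MS- against FBS (adjusted p = 0.158 by limma, 0.00299 with the block). In MS+ against MS- it differed by 0.31 ± 0.13 (0.330 and 0.0209), falling to 0.20 without MS+ of rat 1. The ratio of Actc1 to Actg2 stayed between 0.340 and 0.378 in all 6 libraries, a narrow range. That of Acta1 to Actg2 had the order FBS, MS-, MS+ in each rat, at 0.508, 0.573 and 0.599 in rat 1 and 0.471, 0.521 and 0.537 in rat 2. How far shared reads bear on these ratios was not tested. For the cytoplasmic actins no difference between media passed. Actb, the most common actin of non-muscle cells, was at 13423 to 14208 CPM in FBS, 13756 to 14714 CPM in MS-, and 16052 to 16079.6 CPM in MS+. Actg1 was at 2973 to 3206 CPM in FBS, 2675 to 2966 CPM in MS- and 3107 to 3124 CPM in MS+. The ratio of Actg1 to Actg2 was 1.46 and 1.51 in FBS, 1.86 and 1.82 in MS-, and 1.55 and 1.64 in MS+, so the MS- libraries stood above the others for both rats. The CArG boxes printed above belong to Acta1, Actc1 and Actg1, and Actg2 had none in its window. Actg1 was also lowest in MS- in each rat, though no difference passed. Whether these boxes bear on the levels was not tested.

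**Figure D3:**
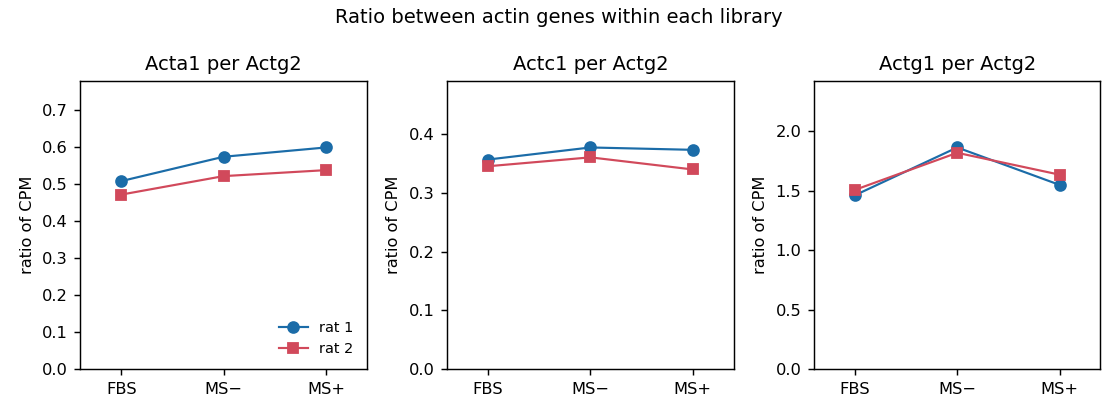
Ratio of CPM between pairs of actin genes (vertical axes from 0) in each library, by medium and rat. Actc1 per Actg2 is nearly flat at 0.340 to 0.378, while Actg1 per Actg2 is highest in MS-, at 1.82 and 1.86.

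Tpm1 and Tpm2 encode tropomyosins, the coiled-coil proteins that run in the groove of the actin filament. Tpm2 (NM_001024345, chr5:59994101-60003261, minus strand) read 2435 and 1919.8 CPM in FBS, 2699 and 2366 CPM in MS-, and 2622 and 2373 CPM in MS+. The FBS libraries overlapped the others, and the differences of 0.22 ± 0.16 (MS- against FBS) and 0.21 ± 0.16 (MS+ against FBS) did not pass either fit (adjusted p = 0.472 and 0.445 by limma, 0.0954 and 0.104 with the block). Tpm1 was spread over 9 transcripts that overlap one another, so only reads unique to one of them were counted, and 6 of the 9 were at 0 in every library. The most abundant (NM_001034071, chr8:71331305-71358063, minus strand) had 49.9 and 52.9 CPM in FBS, 62.9 and 83.7 CPM in MS-, and 52.6 and 52.3 CPM in MS+. Both MS- libraries were above the other 4. The difference was 0.49 ± 0.15 against FBS (adjusted p = 0.121 by limma, 0.00707 with the block) and MS+ lay -0.46 ± 0.15 from MS- (0.235 and 0.0198). Its size depended on the rat, with MS- above FBS by 0.33 in rat 1 and 0.65 in rat 2. Without MS- of rat 2 the differences were 0.29 from FBS and -0.26 between MS+ and MS-.

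Of the other Tpm1 transcripts, NM_001034072 read 12.3 and 17.1 CPM in FBS, 26.2 and 21.5 CPM in MS-, and 21.8 and 21.1 CPM in MS+. It was lowest in FBS and highest in MS- in both rats, although its gap between MS+ and MS- was only -0.14 ± 0.19 and neither fit called it (adjusted p = 0.793 by limma, 0.678 with the block). It differed from FBS by 0.67 ± 0.19 in MS- (adjusted p = 0.108 by limma, 0.0120 with the block) and by 0.54 ± 0.19 in MS+ (0.127 and 0.0314). NM_001034075 had only 28 to 62 reads per library. It went the other way between the rat sera, at 0.28 ± 0.35 for MS+ against MS-, which neither fit called (adjusted p = 0.767 by limma, 0.496 with the block). Summing all transcripts of the gene gave 0.53 for MS- against FBS and -0.31 for MS+ against MS-. For MS+ against FBS the sum gave 0.21, where the most abundant transcript had 0.03.

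Cald1 encodes caldesmon, which blocks myosin from actin until it is released by calcium-calmodulin or phosphorylation (NM_013146, chr4:62087364-62156855, plus strand). Its levels were 2864 and 3407 CPM in FBS, 4229 and 5168 CPM in MS-, and 4416 and 4847 CPM in MS+. All 4 libraries in rat serum lay above both FBS libraries. The difference from FBS was 0.58 ± 0.17 in MS- (adjusted p = 0.112 by limma, 0.000452 with the block, 0.00973 by DESeq2) and 0.57 ± 0.17 in MS+ (0.0828, 0.000416 and 0.00941). The 2 rats gave 0.56 and 0.60 for MS-, and 0.62 and 0.51 for MS+. Between the 2 rat sera it was -0.01 ± 0.17, with a 95% interval of -0.41 to 0.38.

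Cnn1 and Tagln, calponin and transgelin (SM22), are among the most used markers of smooth muscle and myofibroblasts, and neither passed a test between media. Tagln (NM_031549, chr8:48902208-48907682, minus strand) read 9764 and 7630.3 CPM in FBS, 8844 and 7352 CPM in MS-, and 8996 and 7332 CPM in MS+. Here the rats lay further apart than the media, and rat 1 was above rat 2 in each. Tagln differed by 0.01 ± 0.21 between MS+ and MS- and by -0.10 ± 0.21 between MS- and FBS, with 95% intervals of -0.50 to 0.52 and -0.60 to 0.41. Cnn1 (NM_031747, chr8:21210527-21221024, plus strand) read 352 and 372 CPM in FBS, 307 and 364 CPM in MS-, and 326 and 359 CPM in MS+. Its differences were 0.03 ± 0.11, -0.08 ± 0.11 and -0.11 ± 0.11 for MS+ against MS-, MS+ against FBS and MS- against FBS, and the intervals stayed between -0.38 and 0.30.

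Myh11 encodes the smooth muscle myosin heavy chain, the motor itself and a late marker of the smooth muscle state (NM_001170600, chr10:666657-776540, plus strand). It stood at 625 and 766 CPM in FBS, 881 and 936 CPM in MS-, and 972 and 1056 CPM in MS+. Both rats thus had the order FBS, MS-, MS+, and no library in rat serum reached down to FBS. Myh11 rose by 0.55 ± 0.13 in MS+ against FBS (adjusted p = 0.0428 by limma, 0.000157 with the block), with 0.64 in rat 1 and 0.46 in rat 2. That call was lost without any 1 of the 6 libraries, where the adjusted p was 0.0541 to 0.172. In MS- it was 0.39 ± 0.13 above FBS (adjusted p = 0.141, and 0.00339 with the block), and 0.25 above without FBS of rat 1. MS+ exceeded MS- by 0.16 ± 0.13, which neither fit called (adjusted p = 0.627, and 0.263 with the block).

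Myl9, the regulatory light chain of that myosin (NM_001100885, chr3:147190252-147193865, plus strand), read 979.9 and 1130.1 CPM in FBS, 1081 and 1375 CPM in MS-, and 1047 and 1379.8 CPM in MS+. Media overlapped, and the rats did not. Its differences from FBS were 0.21 ± 0.18 in MS- and 0.19 ± 0.18 in MS+ (adjusted p = 0.554 and 0.537 by limma, 0.0896 and 0.103 with the block).

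Taken over the 9 genes, the median log2 difference was 0.01 for MS+ against MS-, where all transcripts had -0.0058. It was 0.13 for MS+ against FBS and 0.21 for MS- against FBS, where all transcripts had 0.00078 and 0.014. The summed level of the 9 was 18179 to 20376 CPM in FBS, 19879 to 20608 CPM in MS- and 20336 to 21636 CPM in MS+. Both rats moved in the same direction in 4, 8 and 9 of the 9 genes in these comparisons, while 66.6%, 72.3% and 72.8% of all transcripts did so. The libraries of the 2 groups compared did not overlap in 4, 2 and 5 of the 9 genes, beside 45.8%, 56.7% and 51.6% of all transcripts. MS+ and MS- share the FBS libraries as their control, so their differences from FBS are not independent of each other.

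The cells of the 2 rats also differed in these genes. With the rat term of the same limma fit, 3 of 9 genes passed an adjusted p of 0.05, against 10.5% of all transcripts. Myl9 was 0.32 ± 0.07 higher in rat 2 (adjusted p = 0.00597), while Tagln and Acta1 were -0.31 ± 0.09 and -0.25 ± 0.06 from rat 1 (0.0350 and 0.0219). The direction was the same in all 3 media for 8 of 9 genes, 4 higher and 4 lower in rat 2, where 42.4% of all transcripts kept one direction. The exception was Tpm1, whose rats differed by 0.41 in MS- and by -0.0082 in MS+. Of the further genes of the contractile pathway, Mylk and Smtn, named here after their values were seen, differed far more. Others did not pass, such as Srf at -0.07 and Flna at 0.06 (adjusted p = 0.595 and 0.748 for the rat term). Mylk, the kinase that phosphorylates the myosin light chain, read 258, 198 and 264 CPM in rat 1 and 126, 99.96 and 141 CPM in rat 2, in FBS, MS- and MS+. Rat 2 was -0.97 ± 0.07 from rat 1 (adjusted p = 1.14e-07). Smtn, the gene of smoothelin, was higher in rat 2 by 0.72 ± 0.07 (adjusted p = 7.1e-06). This contrast is between 2 animals with no replicate of either, so rat and cell preparation cannot be told apart.

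**Figure D4:**
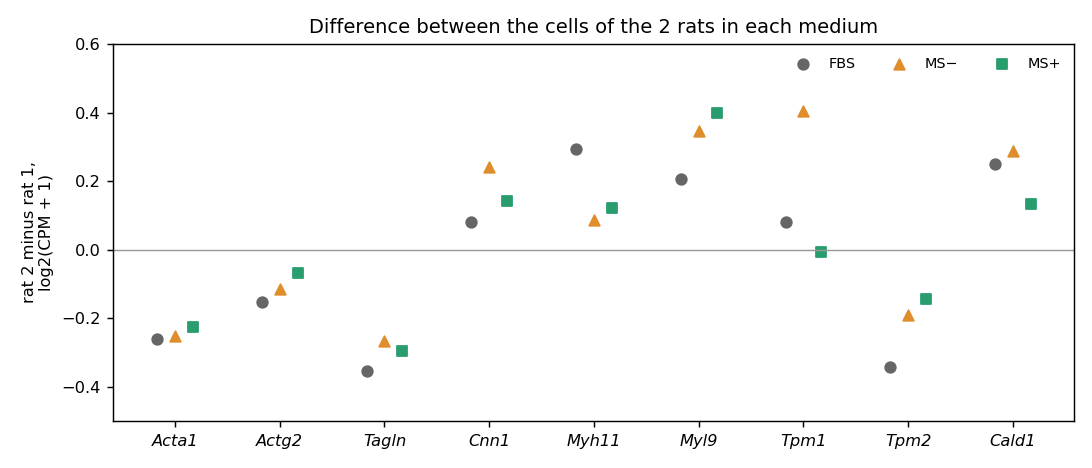
Difference between rat 2 and rat 1 on the log2(CPM + 1) scale (vertical axis) for the 9 contractile genes, 1 symbol per medium. Acta1, Actg2, Tagln and Tpm2 are below 0 in all media, and Cnn1, Myh11, Myl9 and Cald1 above it; Tpm1 spreads from -0.0082 to 0.41.

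Several contractile genes have a relative that non-muscle cells use for the same task. Of 10 such genes listed, 7 were tested. In MS+ against FBS 3 of them were lower without the block, as were 4.66% of all transcripts, and all 7 with it, as were 13.9% of all transcripts; their median was -0.47 where all transcripts had 0.00078. Tpm3, a cytoplasmic tropomyosin, was at 469 and 421 CPM in FBS, 386 and 366 CPM in MS-, and 316 and 285 CPM in MS+. It fell by 0.57 ± 0.10 on the log2 scale in MS+ against FBS (adjusted p = 0.0227 by limma). Tagln2, the transgelin of non-muscle cells, fell by 0.49 ± 0.12 (0.0446), and Cnn3, the acidic calponin, fell by 0.41 ± 0.09 (0.0328). Cnn3 also fell in MS- against FBS, by 0.40 ± 0.09 (0.0493). Myh9, the most abundant of them and the main non-muscle myosin heavy chain, was at 4331 to 4563 CPM in FBS, 3914 to 3924 CPM in MS- and 3377 to 3496 CPM in MS+ (adjusted p = 0.118 for MS+ against FBS, and 0.00830 with the block). Between MS+ and MS- the block fit had 4 of the 7 lower in MS+ (Tpm3, Tpm4, Myh10 and Myl12b), as were 4.78% of all transcripts.

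The ratio of a contractile gene to its relative was taken within each library for 7 pairs. Myh11 per Myh9 was 0.137 and 0.177 in FBS, 0.225 and 0.239 in MS-, and 0.288 and 0.302 in MS+. Tpm2 per Tpm3 was 5.19 and 4.56 in FBS, 6.99 and 6.46 in MS-, and 8.29 and 8.33 in MS+. Myh11 per Myh10, the other non-muscle heavy chain tested, was 1.89 and 1.44 in FBS, 2.84 and 2.21 in MS-, and 4.21 and 3.403 in MS+. These ratios had the order FBS, MS-, MS+ in each rat with no overlap between media. The same order within each rat, but with overlap between media, was seen for Tpm2 per Tpm4 (2.73 and 1.98 in FBS, 3.24 and 2.64 in MS-, 3.83 and 3.13 in MS+). It was also seen for Myl9 per Myl12b, at 2.28 and 3.21, 2.57 and 4.15, and 3.47 and 5.31. Tagln per Tagln2 was 8.92 and 7.80 in FBS and 10.1 to 12.1 in the rat sera, which overlapped each other. Cnn1 per Cnn3 also had the order FBS, MS-, MS+ within each rat, with overlap between the rat sera. It was 0.652, 0.762 and 0.793 in rat 1 and 0.707, 0.899 and 0.912 in rat 2. All 7 ratios are given as descriptions and were chosen with the values known; the difference between a gene and its relative was not tested.

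**Figure D5:**
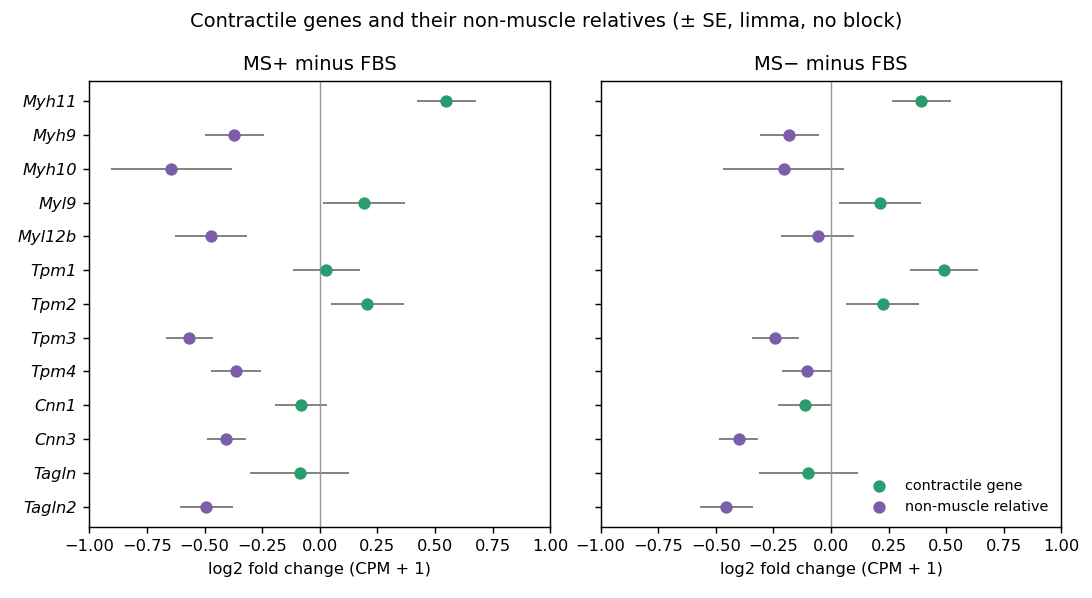
Log2 fold changes against FBS with their SE (limma, no block) of 6 contractile genes (green) and 7 non-muscle relatives (purple), in MS+ and in MS-. In MS+ all 7 relatives lie left of 0, between -0.64 and -0.36, and no contractile gene lies below -0.09.

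Genes that build or regulate the apparatus were counted on lists named with the contractile genes. Among 19 tested genes of actin crosslinking and adhesion plaques, Fhl2, a LIM protein of focal adhesions and the nucleus, was at 187 and 176 CPM in FBS and 117 and 120.4 CPM in MS+, where it fell by 0.61 ± 0.09 (adjusted p = 0.0134 by limma). Pdlim3, a PDZ-LIM protein that binds alpha-actinin, was at 24.7 and 29.2 CPM in FBS and 57.8 and 54.6 CPM in MS-, where it rose by 1.04 ± 0.19 (0.0307). With the block the list had 2 higher and 6 lower in MS+ against FBS, where 28.2% of all transcripts were called, and 2 higher and 3 lower in MS- against FBS, where 20.5% were. Flna, filamin A and the most abundant gene of the list at 9351 to 10511 CPM, passed no test.

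Of the 7 tested genes for SRF, its coactivators and related factors, Smad2 fell by 0.43 ± 0.10 in MS+ against FBS (adjusted p = 0.0456 by limma), from 62.4 and 59.4 CPM to 43.6 and 46.2 CPM. Srf, the most abundant, read 211 and 186 CPM in FBS, 207 and 195 CPM in MS-, and 163 and 168 CPM in MS+, and differed by -0.26 ± 0.10 between MS+ and FBS (0.147, and 0.0366 with the block). Myocd, the gene of the muscle coactivator myocardin, read 72.4 and 128 CPM in FBS, 121 and 184 CPM in MS-, and 173 and 156 CPM in MS+. Myocd differed from FBS by 0.76 ± 0.29 in MS+ (0.145, and 0.00175 with the block) and by 0.62 ± 0.29 in MS- (0.277, and 0.00949 with the block). These values rested on the FBS libraries, at 0.35 and 0.22 without rat 1 and 1.17 and 1.03 without rat 2 in FBS; leaving out MS- of rat 2 also moved the second by over 1.5 times. Each call named from these lists without the block was lost without at least 1 library. Cnn3, Tagln2 and Smad2 lost theirs without any 1 of the 6, at adjusted p up to 0.233, 0.185 and 0.196. Tpm3, Fhl2 and Pdlim3 lost theirs without any 1 of the 4 libraries compared (up to 0.113, 0.0935 and 0.170).

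With the rat as a block, 3 of 10 late smooth muscle markers were higher and 1 lower in MS+ against FBS (28.2% of all transcripts called), and 5 were higher and 2 lower in MS- against FBS (20.5%). Lmod1, leiomodin and the most abundant of them by the mean over all 6 libraries, was at 555 to 557 CPM in FBS and 607 to 701 CPM in the rat sera (adjusted p = 0.146 for MS- against FBS by limma, 0.0168 with the block). Ppp1r14a, an inhibitor of myosin phosphatase, was at 46.0 and 64.2 CPM in FBS, 58.0 and 78.3 CPM in MS- and 68.6 and 96.9 CPM in MS+, or 0.58 ± 0.24 above FBS in MS+ (adjusted p = 0.170 by limma, 0.000446 with the block). Its lowest value without 1 library was 0.33, without MS+ of rat 2, and leaving out FBS of rat 1 moved it about as far. Aoc3, a vascular amine oxidase, was at 105 and 604 CPM in FBS for rats 1 and 2 and higher for each in both rat sera (adjusted p = 0.817 for MS+ and 0.807 for MS- against FBS by limma, 0.000570 and 8.52e-05 with the block), and rat 2 exceeded rat 1 by 2.37 (adjusted p = 3.16e-12 for the rat term). Synm, synemin, was at 1.96 to 2.16 CPM in FBS and 4.02 to 8.26 CPM in the rat sera (adjusted p = 0.0740 for MS+ and 0.149 for MS- against FBS by limma, 0.00208 and 0.00853 with the block). Des, desmin, went the other way, with 13 and 9 reads in FBS and at most 5 in the rat sera. Synm likewise had few reads, at 12 and 13 in FBS and 22 to 45 in the rat sera, so neither level is firm. Mylk, whose levels are given above, was lowest in MS- in each rat. It was 0.46 ± 0.46 higher in MS+ than in MS- (adjusted p = 0.713 by limma, 0.00305 with the block). With the block it was the only 1 of the 10 called in that comparison, where 10.1% of all transcripts were.

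Of 16 listed genes of myofibroblast matrix, secreted factors, integrins and cadherins, 14 were tested. With the block 4 were higher and 1 lower in MS+ against FBS, beside 28.2% of all transcripts called, and 4 were higher and 3 lower in MS- against FBS, beside 20.5%. Ccn2, the connective tissue growth factor, was at 9764 and 10272 CPM in FBS, 15320.2 and 14666 CPM in MS-, and 14991 and 14556 CPM in MS+, or 0.58 ± 0.18 and 0.56 ± 0.18 above FBS (adjusted p = 0.136 and 0.106 by limma, 0.00253 and 0.00232 with the block). Col1a1, a chain of type I collagen, was at 40458 and 34296 CPM in FBS, 23563 and 23624 CPM in MS-, and 28736 and 25507 CPM in MS+, or -0.66 ± 0.25 from FBS in MS- (0.195 and 0.00376). Lox, lysyl oxidase, was at 191 and 404 CPM in FBS and 337 to 557 CPM in the rat sera (0.310 and 0.00114 for MS+ against FBS). Its difference from FBS in MS+ was 0.64, but 0.10 without FBS of rat 1 and 1.18 without FBS of rat 2.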

How the data were processed

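Per the labels and the study's methods, poly(A) RNA of 6 cultures was sequenced on an Illumina instrument. The authors aligned reads to rn4 with Bowtie2 2.1.0 and counted them per transcript with HTSeq 0.5.4p3 in its intersection-nonempty mode, and strand use was not stated. The authors scaled the counts by TMM (edgeR) and deposited the resulting signal, given in CPM. Positions are rn4 spans as deposited, written 1-based, without exons or lengths; "most abundant" refers to mean CPM, not to a level per length, and ratios between genes are compared only across libraries.

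Each column was divided by the value of 1 read; 100% of values came out whole within 1e-06 reads. Transcripts with both libraries of a group at 1 CPM or more were kept. On log2(CPM + 1), limma 3.58.1 (with trend; two-sided; R 4.3.3) was fitted to all 6 libraries with medium as the only term. This scale understates changes of low genes. The fit was tested beforehand on simulated data that held no difference between rats. That test therefore does not show how the fit without the block behaves where rats differ. edgeR 4.0.16 and DESeq2 1.42.0 ran on the recovered reads. Adjusted p-values cover all 9820 transcripts; values with ± are SE. P-values measure only the spread between these libraries.

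Replicate numbers name the same rat in each group per the labels. The rat 2 minus rat 1 differences correlated across transcripts at 0.59 (MS+ and MS-), 0.49 (MS+ and FBS) and 0.62 (MS- and FBS). The study's tests used no block, so the block is the alternative. Libraries of a group were not copies (chi-square per degree of freedom 13.7 to 15.4).

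The 10 genes and all lists were chosen with earlier results of these data known. Named beside them were, per list, up to 4 genes with the largest change among those passing limma (or, with none, the block fit), and the most abundant. A search for genes patterned like Acta2 was not run. Gene families with similar sequence (actins, tropomyosins, myosin chains) are uncertain, since shared reads may be split or dropped. Some genes that these rules would name are not reported here.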

Additional observations from a re-analysis of the deposited data

How the results depend on the processing

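Over the 27 contractile gene differences and 17 alternatives, 410 values kept direction and call, 21 gained a call, 8 lost it (all Myh11 in MS+ against FBS) and 20 changed sign, none of them a called value. With the replicate block limma and edgeR each called 3 of the 9 genes for MS+ against MS-, 2 for MS+ against FBS and 5 for MS- against FBS. Of all transcripts, limma with the block called 10.1%, 28.2% and 20.5%, and edgeR with the block 10.1%, 29% and 21%. DESeq2 called 2 for each rat serum against FBS, with 8.26% of all transcripts for MS+ and 5.45% for MS-. For MS+ against FBS 0 were called with library totals (Myh11 at an adjusted p of 0.0566), 0 without the filter on low values (0.0743), and 0 to 0 when 1 library was left out; for the other comparisons the count was likewise 0 to 0. A lone library left in a group was assumed to vary like the other groups. The block changed no other call among the differences given above beyond those printed with it.

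Signs changed only near 0 or with 1 library left out. With library totals Tagln was at -0.0075 for MS+ against MS- and Tpm1 at -0.0187 for MS+ against FBS. Without 1 library, MS+ against MS- ran from -0.14 to 0.16 for Tagln, -0.088 to 0.15 for Cnn1, -0.22 to 0.18 for Myl9, -0.11 to 0.076 for Tpm2 and -0.16 to 0.13 for Cald1. MS+ against FBS ran from -0.27 to 0.090 for Tagln, -0.0044 to 0.26 for Acta1, -0.0071 to 0.39 for Myl9, -0.012 to 0.070 for Tpm1, -0.17 to 0.036 for Actc1 and -0.77 to 1.74 for Aoc3. MS- against FBS ran from -0.28 to 0.080 for Tagln, -0.24 to 0.0062 for Cnn1 and -0.64 to 1.87 for Aoc3. The cause was not tested. Depth limits Tpm1, at 285 to 463 reads, more than the other genes.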
